A study of Mus musculus with 6 samples.

Results

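The 10 genes described here, Adgre1, Lyz2, Cd14, Csf1r, Cd68, Mrc1, Marco, Chil3, C1qa and C1qb, are a list of macrophage and monocyte markers, found in the files by symbol. All 10 were among the 48397 gene symbols of the count files, and all 10 passed the low-count filter that left 16198 genes to test. Each member was over that filter's minimum in 3 of 3 IgG and 3 of 3 5E1 libraries, so no member was tested only because it was high in 1 group. The 6 libraries come from lungs of PdgfraEGFP/+ mouse pups at postnatal day 8, whose PdgfraEGFP/+ dams were injected intraperitoneally on E18.5 (embryonic day) with control IgG (3 libraries) or with 5E1, a monoclonal antibody that binds hedgehog ligands (3 libraries). Pups of both groups, controls included, carried the PdgfraEGFP reporter allele, and live EGFP+ lung cells were sorted for RNA. The labels give neither the sex of the pups nor whether a library holds 1 pup or a pool, so p-values measure the spread between these libraries, which may be technical.

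Tissue macrophages are phagocytes that clear debris and surplus surfactant in the lung, and monocytes are blood cells that can enter tissue and mature into them. Alveolar macrophages sit in the airspaces and fill that niche in the first days after birth, whereas interstitial macrophages lie in the septa and around vessels. Their growth and survival depend on signals through the receptor encoded by Csf1r and, in the airspaces, on granulocyte-macrophage colony-stimulating factor. The transcription factor PU.1, encoded by Spi1, binds purine-rich DNA near many of their genes. None of these cells is known for expressing Pdgfra, the gene whose reporter was used for the sort.

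Pdgfra, the gene of the sort's reporter, was read in every library, and the members took a small part of the gene reads. All libraries were of sorted cells, so the purity of the sort was not tested. Pdgfra measured 556, 537 and 413 CPM (counts scaled to a common library size, with TMM scaling factors) in IgG replicates 1 to 3, and 574, 720 and 640 CPM in 5E1 replicates 1 to 3. Ptprc, the gene of the leukocyte surface phosphatase CD45, measured 7.87, 9.86 and 10.6 CPM in IgG and 20.2, 24.1 and 14.2 CPM in 5E1. The hedgehog target Ptch1 fell by 2.19 on the log2 scale (adjusted p 4.12e-06), with all 5E1 libraries below all IgG libraries. Gene reads ranged from 16958433 to 28405457 in the IgG libraries and from 18857199 to 34318583 in those of 5E1. The 10 members together took 0.00962%, 0.0114% and 0.0124% of them in IgG and 0.0194%, 0.0294% and 0.0135% in 5E1.

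One library stood apart in the readings that follow. In 5E1 replicate 2 each of the 10 members had its highest level of the 6 libraries, between 1.21 and 3.47 times the mean of the other 5E1 libraries. The same library was highest for 16 of 16 markers of alveolar and airway epithelium and for 9 of 12 endothelial markers. It was also highest for 17 of 19 leukocyte markers, but for 5 of 20 neutrophil, 2 of 12 mesenchymal and 0 of 9 erythroid markers. The share of all genes with their highest level in this library was not determined. The summed epithelial markers measured 1617 CPM there, 589 and 543 CPM in the other 5E1 libraries and 496 to 739 CPM in IgG. The fold change of every member is therefore given with and without 5E1 replicate 2.

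The promoters of the members were read for the core motif of the lineage factor. RefSeq promoter windows on GRCm38.p6 were available for 6 members, Lyz2, Cd68, Mrc1, Marco, Chil3 and C1qb, and the 250 bases before the annotated start were searched for the PU box, GAGGAA, the core that PU.1 binds, on both strands. It was present in 4 of the 6 (Cd68, Mrc1, Marco and C1qb), and in 25.9% of the 27025 genes with a window (23.3% of all 32851 windows). A longer form, GAGGAAGT, was searched in the same way and was present in none of the 6, and in 2.79% of the genes. The windows of 4 members are printed 5′ to 3′ on the gene's strand, with PU boxes of either strand in capitals: Mrc1 and C1qb, whose RNA rose, Chil3, which had the highest fold change of the list, and Cd68, which differed least. They lie at chr2:14229164-14229413 (plus strand), chr4:136886201-136886450, chr3:106167565-106167814 and chr11:69666171-69666420 (minus strand).
Mrc1: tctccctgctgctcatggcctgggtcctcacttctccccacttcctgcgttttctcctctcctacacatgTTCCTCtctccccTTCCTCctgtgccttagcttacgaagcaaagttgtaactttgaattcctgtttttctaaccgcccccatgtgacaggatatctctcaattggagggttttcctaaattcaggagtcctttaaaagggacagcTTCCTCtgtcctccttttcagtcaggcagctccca
C1qb: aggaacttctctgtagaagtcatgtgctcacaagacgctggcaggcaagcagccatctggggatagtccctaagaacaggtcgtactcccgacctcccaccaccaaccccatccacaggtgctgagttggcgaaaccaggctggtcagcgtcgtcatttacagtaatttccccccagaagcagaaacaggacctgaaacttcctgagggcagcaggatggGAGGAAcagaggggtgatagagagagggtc
Chil3: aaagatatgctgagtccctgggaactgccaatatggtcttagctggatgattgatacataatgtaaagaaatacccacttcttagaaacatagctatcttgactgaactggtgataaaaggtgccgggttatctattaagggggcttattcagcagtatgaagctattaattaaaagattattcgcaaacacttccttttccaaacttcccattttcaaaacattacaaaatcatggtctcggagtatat
Cd68: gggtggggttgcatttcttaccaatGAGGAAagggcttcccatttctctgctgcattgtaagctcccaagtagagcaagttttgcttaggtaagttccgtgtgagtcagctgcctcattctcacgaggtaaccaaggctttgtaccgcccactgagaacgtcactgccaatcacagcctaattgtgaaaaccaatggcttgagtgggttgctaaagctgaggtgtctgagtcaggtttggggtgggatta
Mrc1 held 3 copies, all on the opposite strand, with first bases 180, 167 and 35 bases before the start, a number of copies that 0.429% of all windows reach. C1qb held 1 copy 30 bases and Cd68 1 copy 225 bases before the start, and Chil3 held none. Marco, not printed, held 1 copy. A match describes these letters in this window and shows neither binding nor its absence.

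Of the 10 members, 5 rose after 5E1 (Cd14, Mrc1, Adgre1, C1qb and C1qa), none fell, and 5 did not pass an adjusted p under 0.05 by edgeR's quasi-likelihood test. Among all genes tested 12.1% were called higher and 11.1% lower. All 5E1 libraries lay above all IgG libraries for 7 members, against 20.8% of the genes tested. The median log2 fold change of the members was 1.09, and that of all genes tested was 0.00. Without 5E1 replicate 2, 3 members rose (Cd14, Mrc1 and Chil3) against 10.7% of genes tested, and the median of the members was 0.77. On dropping IgG replicate 1 or IgG replicate 2, 2 members rose (Cd14 and Mrc1), against 8.23% and 7.26% of genes tested. On dropping IgG replicate 3, 5E1 replicate 1 or 5E1 replicate 3, 5, 5 and 4 rose, against 8.12%, 11.2% and 8.05%. DESeq2 called 8 higher against 13.9% of genes, library size alone 4 against 8.1%, and the replicate number as a block 5 against 10.6%. With limma-voom 7 were called higher against 12.3%, and without robust estimation 7 against 12.2%. A term for libraries lacking Y-linked reads gave 7 against 11.2%, and keeping low counts 6 against 8.38%. In bulk RNA more cells of a type and more RNA per cell cannot be told apart. The libraries hold sorted EGFP+ cells, so these levels do not measure how many macrophages the lungs held. The part of the sort in the members' rise was not tested.

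**Figure D1:**
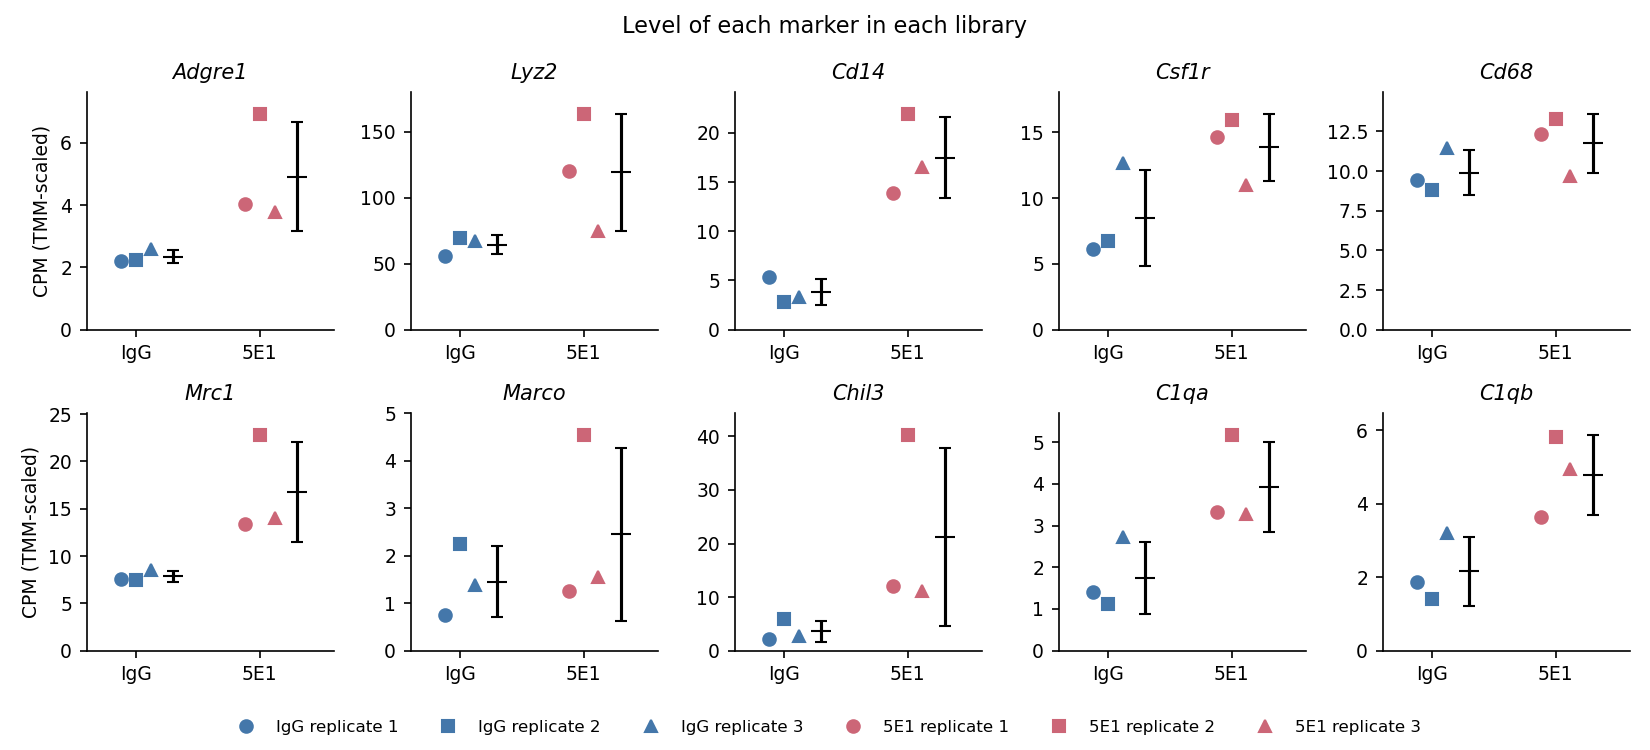
Level of each of the 10 markers (CPM on TMM-scaled library sizes, linear axes from 0) in the 3 IgG (blue) and 3 5E1 (red) libraries, with mean and SD of each group as a black dash and bar. In all 10 panels 5E1 replicate 2 (red square) is the highest point, and in 7 panels every red point lies above every blue point.

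Among the members that encode receptors for microbes and debris, Cd14 had the smallest p. It encodes a lipid-anchored co-receptor that hands lipopolysaccharide to Toll-like receptor 4, and neutrophils and some non-leukocytes carry it too. Its level was 5.31, 2.86 and 3.34 CPM in IgG and 13.9, 22 and 16.5 CPM in 5E1. The groups were well apart, the lowest 5E1 library being 5E1 replicate 1 and the highest IgG library IgG replicate 1. Cd14 rose 4.51-fold, a log2 fold change of 2.17 (SE 0.25, adjusted p 0.000369), and 3.91-fold without 5E1 replicate 2 (adjusted p 0.000416). It passed in all 15 alternatives, with log2 fold changes of 1.97 to 2.49.

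Genes of the receptor complex that Cd14 serves were listed for comparison, 13 in all. Of these, 4 rose and none fell (median log2 fold change 0.25), against 12.1% called higher and 11.1% lower among all genes tested. Tlr4, the signalling receptor, measured 5.89, 5.71 and 3.63 CPM in IgG and 9.62, 18 and 14.1 CPM in 5E1 (log2 fold change 1.47, adjusted p 0.00327). Tlr2, which senses bacterial lipoproteins, rose by a log2 fold change of 1.30 (adjusted p 0.000544). The adaptor gene Myd88 rose by 0.58, and Lbp, whose product loads lipopolysaccharide onto CD14, by 1.09 (adjusted p 0.0318), a call that ended without IgG replicate 3 (0.0929) or without 5E1 replicate 1 (0.0532), 2 (0.0629) or 3 (0.0998). The call of Lbp also ended with a term for libraries lacking Y-linked reads (0.0548).

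Mrc1 encodes the macrophage mannose receptor, an endocytic lectin of tissue macrophages and of some endothelial cells. It measured 7.60, 7.45 and 8.53 CPM in IgG and 13.4, 22.8 and 14.1 CPM in 5E1. The IgG libraries lay close together, with a coefficient of variation of 7.47%, and every 5E1 library was clear of them. Mrc1 rose 2.14-fold (log2 fold change 1.1, SE 0.21, adjusted p 0.00406), and 1.75-fold without 5E1 replicate 2 (adjusted p 0.00395). Like Cd14 it passed in all 15 alternatives, with log2 fold changes of 0.80 to 1.23. Its relative Mrc2, a collagen receptor of mesenchymal cells named here for that relation, measured 446, 417 and 526 CPM in IgG and 504, 414 and 590 CPM in 5E1 (log2 fold change 0.12, adjusted p 0.581).

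Marco encodes a scavenger receptor that binds particles and bacteria and marks alveolar macrophages. It had 22 to 153 reads per library and measured 0.749, 2.24 and 1.38 CPM in IgG and 1.25, 4.55 and 1.55 CPM in 5E1. The groups overlapped, and the difference rested on 5E1 replicate 2. The log2 fold change was 0.81 (SE 0.56, adjusted p 0.327), and -0.01 without 5E1 replicate 2 (adjusted p 0.987).

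Other scavenger and phagocytic receptors rose in 11 of 17 tested (20 listed, none fell, median log2 fold change 0.79), against 12.1% of all genes tested. Mertk, a receptor for the bridge proteins of apoptotic cell clearance, rose from 20.5, 21.7 and 22.6 CPM in IgG to 40.3, 56.1 and 46.1 CPM in 5E1 (log2 fold change 1.14, adjusted p 0.000196). Cd163, the haemoglobin scavenger receptor of interstitial macrophages, rose from 0.477, 0.336 and 0.545 CPM to 1.20, 1.85 and 2.43 CPM (log2 fold change 1.99, adjusted p 0.00773). Cd163 had few reads, 14, 6 and 15 in IgG and 22, 62 and 66 in 5E1. Scarb2 and Axl rose by 0.73 and 0.62. Their levels were at least 222 CPM (Axl) and 303 CPM (Scarb2) in every library, far above Ptprc, and what share of them comes from macrophages was not tested. The number of these receptors that rose was 6 without IgG replicate 1 or 3, and 7 without IgG replicate 2 or 5E1 replicate 2.

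Adgre1 and Csf1r are surface markers of lineage identity. Adgre1 encodes an adhesion G protein-coupled receptor that is the classical surface antigen of mouse macrophages. It measured 2.21, 2.24 and 2.58 CPM in IgG and 4.02, 6.94 and 3.79 CPM in 5E1, with no overlap. Adgre1 rose 2.11-fold (log2 fold change 1.07, SE 0.28, adjusted p 0.0196). Leaving out any IgG library ended that call, with an adjusted p of 0.0684 (replicate 1), 0.0638 (2) or 0.0505 (3), and so did leaving out 5E1 replicate 2, where the fold was 1.66 (0.0617). Its relative Adgre5, which is broadly expressed, ran the other way, from 135, 162 and 126 CPM in IgG to 99.5, 92.5 and 69.7 CPM in 5E1 (log2 fold change -0.69, adjusted p 0.00705).

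Csf1r encodes the receptor tyrosine kinase for colony-stimulating factor 1, the main survival signal of this lineage. It measured 6.10, 6.72 and 12.7 CPM in IgG and 14.6, 16 and 11 CPM in 5E1. IgG replicate 3 lay above 5E1 replicate 3, so the groups overlapped. The log2 fold change was 0.70 (SE 0.28, adjusted p 0.103) and did not pass, and it was 0.58 without 5E1 replicate 2 (adjusted p 0.248). Without IgG replicate 3 it was 1.11 (adjusted p 0.00831), and it also passed with DESeq2 (0.0341), when low counts were kept (0.00105) and when the 2 libraries lacking Y-linked reads had a term of their own (0.0405). IgG replicate 3 was the highest IgG library for 6 of the 10 members, and it and 5E1 replicate 1 were the 2 that lacked Y-linked reads. Exons of Csf1r share 873 bases with Hmgxb3 on the opposite strand, and the strand setting of the counting is not given in the sources used here, so its counts may hold or lack reads of that region.

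Genes of growth factors, receptors and transcription factors of the lineage were listed too. Of 16, 9 rose and none fell (median log2 fold change 0.74), against 12.1% called higher and 11.1% lower among all genes tested. Spi1, the gene of PU.1, rose from 1.16, 1.46 and 2.03 CPM in IgG to 3.97, 4.64 and 3.68 CPM in 5E1 (log2 fold change 1.40, adjusted p 0.00597). Csf2rb, the signalling chain of the receptor for granulocyte-macrophage colony-stimulating factor, rose by 1.70 (adjusted p 0.00131). Nr4a1, which marks patrolling monocytes but is also an immediate early gene, rose by 0.92 (adjusted p 0.00255) at 618 to 948 CPM in IgG, far above the level of Ptprc. The ligands of Csf1r, named for that relation, differed: Csf1 rose from 57.2, 41.6 and 56.4 CPM to 69.9, 75.4 and 86.9 CPM (log2 fold change 0.58, adjusted p 0.0106), and Il34 measured 1.67 to 2.07 CPM and 2.01 to 2.39 CPM (adjusted p 0.565).

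**Figure D2:**
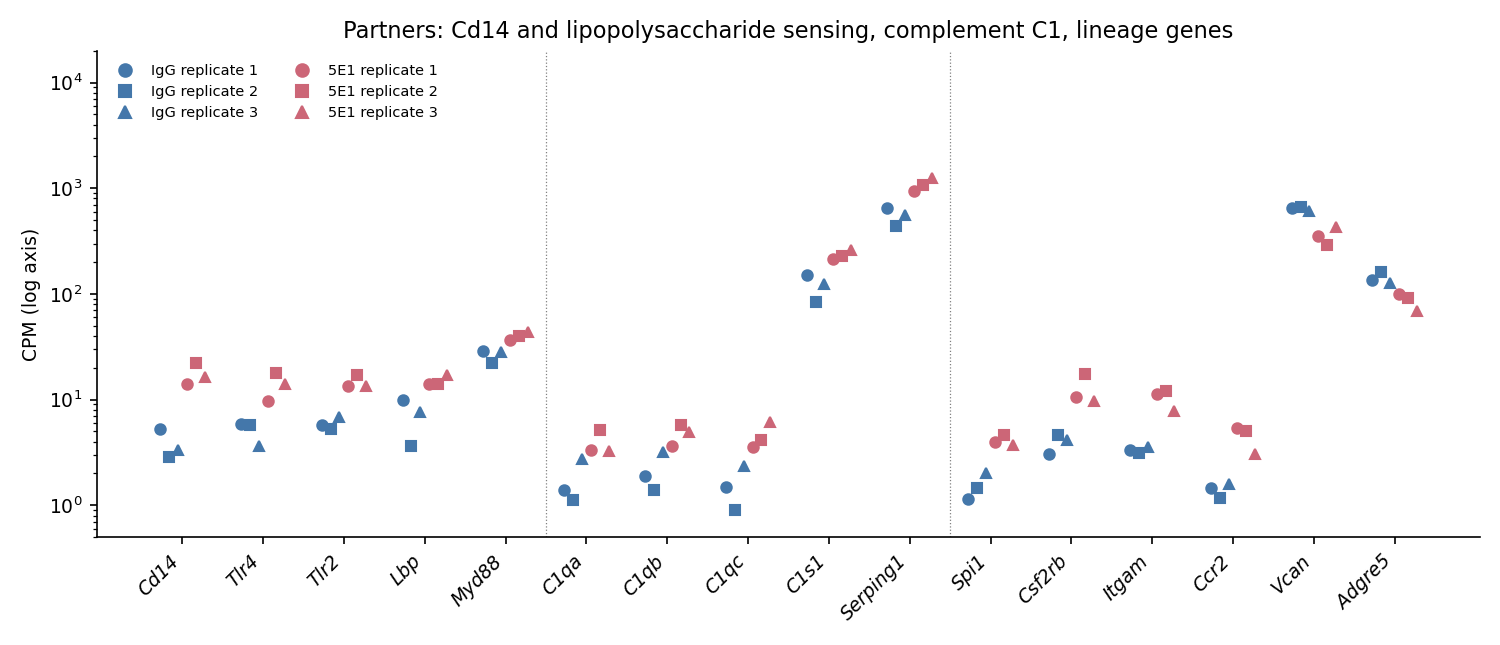
Levels (CPM, log axis) of Cd14 with its sensing partners, of the C1q chains with C1s1 and Serping1, and of lineage genes in the 3 IgG (blue) and 3 5E1 (red) libraries. Vcan and Adgre5 are the genes of the plot whose red points all lie below the blue points, and for the other 14 every red point lies above the blue points.

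Complement C1q is a secreted recognition molecule built from chains A, B and C, and macrophages are its main source. The genes of its chains lie side by side on chromosome 4 (C1qa 136895917 to 136898803, C1qc 136889804 to 136893065 and C1qb 136880129 to 136886187 in mm10). C1qa measured 1.40, 1.12 and 2.72 CPM in IgG and 3.31, 5.18 and 3.28 CPM in 5E1. C1qb measured 1.87, 1.40 and 3.19 CPM in IgG and 3.64, 5.81 and 4.93 CPM in 5E1. For both genes IgG replicate 3 came close to the lowest 5E1 library, and no library crossed. C1qa rose 2.23-fold (log2 fold change 1.15, SE 0.36, adjusted p 0.0395) and C1qb 2.21-fold (1.14, SE 0.32, adjusted p 0.0265). Both calls were near the threshold. Either was lost on leaving out IgG replicate 1 (adjusted p 0.130 for C1qa and 0.0927 for C1qb), IgG replicate 2 (0.123 and 0.0887), 5E1 replicate 2 (0.112 and 0.0636) or 5E1 replicate 3 (0.0643 and 0.0760). C1qa also missed the threshold with library size alone (0.0534) and with the replicate number as a block (0.0588).

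The third chain, C1qc, is no member of the list. It measured 1.5, 0.896 and 2.36 CPM in IgG and 3.59, 4.11 and 6.08 CPM in 5E1 (log2 fold change 1.51, SE 0.35, adjusted p 0.0116, and 0.0585 without 5E1 replicate 3). Reads of C1qa per read of C1qb ran from 0.745 to 0.852 in IgG and from 0.664 to 0.910 in 5E1. Reads of C1qc per read of C1qb were 0.8, 0.64 and 0.739 in IgG and 0.985, 0.708 and 1.23 in 5E1, and both ratios overlapped between groups. C1qc was highest in 5E1 replicate 3, unlike the members. The proteases and the inhibitor that act with C1q are made by fibroblasts and were at other levels: C1s1 measured 84.4 to 151 CPM in IgG and 214 to 261 CPM in 5E1 (log2 fold change 0.97, adjusted p 0.0102), and Serping1, the gene of the C1 inhibitor, 440 to 649 CPM and 949 to 1255 CPM (0.99, adjusted p 0.00162). Among 17 tested relatives and chain partners of the members, 6 rose and 1 fell, against 12.1% and 11.1% of all genes tested. The number that rose was 3 without IgG replicate 3 or 5E1 replicate 2 (8.12% and 10.7% of all genes tested).

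The products of the lysosome and of secretion held the most abundant member and the one with the highest fold change. Lyz2 encodes lysozyme M of macrophages, monocytes and neutrophils, and alveolar type 2 cells transcribe it as well. It measured 56.1, 69.4 and 67.4 CPM in IgG and 120, 164 and 74.5 CPM in 5E1. The groups did not overlap, and 5E1 replicate 3 lay just above the highest IgG library. The fold was 1.86 (log2 fold change 0.89, SE 0.28, adjusted p 0.0662) and did not pass. It was 1.51 without 5E1 replicate 2 (adjusted p 0.0841). Lyz2 passed without 5E1 replicate 3 (0.00176), with DESeq2 (0.000263), limma-voom (0.0266), the filter at 5 CPM (0.0468) and no robust estimation (0.0192).

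The neighbouring copy Lyz1, which Paneth and type 2 cells express, measured 5.93, 7.5 and 8.10 CPM in IgG and 9.94, 16.2 and 4.20 CPM in 5E1 (adjusted p 0.462). Of the 50-base words in Lyz2 transcripts, 15.4% also occur in transcripts of another gene, Lyz1. The files tally multiply aligned reads in a line outside the genes, so the Lyz2 values may lack reads from those stretches. Lyz2 gave 8.33 to 9.47 reads per read of Lyz1 in IgG, and 12.1, 10.1 and 17.8 in 5E1 replicates 1 to 3.

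Chil3 encodes a chitinase-like lectin that alveolar macrophages secrete, and immature neutrophils and monocytes express it too. It measured 2.25, 5.82 and 2.80 CPM in IgG and 12.1, 40.3 and 11.1 CPM in 5E1. All 5E1 libraries were above all IgG libraries, but 5E1 replicate 2 was 3.47 times the mean of the other 5E1 libraries. The fold was 6.08 (log2 fold change 2.60, SE 0.70), and the adjusted p, 0.050009, lay just above the threshold and did not pass. Without 5E1 replicate 2 the fold was 3.30, and with the smaller spread the adjusted p was 0.0102 and passed. Chil3 passed in 7 of 15 alternatives, and its adjusted p ran from 0.000142 to 0.181 over them. Of its 50-base words 26.9% also occur in another gene, Chil4 among them, and Chil4 itself had 19, 2 and 6 reads in IgG and 0 in each 5E1 library.

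Cd68 encodes a heavily glycosylated protein of late endosomes and lysosomes, abundant in macrophages and present at lower levels in other cells. It measured 9.47, 8.79 and 11.5 CPM in IgG and 12.3, 13.3 and 9.68 CPM in 5E1, and the groups overlapped. Its log2 fold change was 0.24 (SE 0.17, adjusted p 0.334), the smallest of the 10, and 0.14 without 5E1 replicate 2 (adjusted p 0.623). Cd68 passed in none of 15 alternatives.

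**Figure D3:**
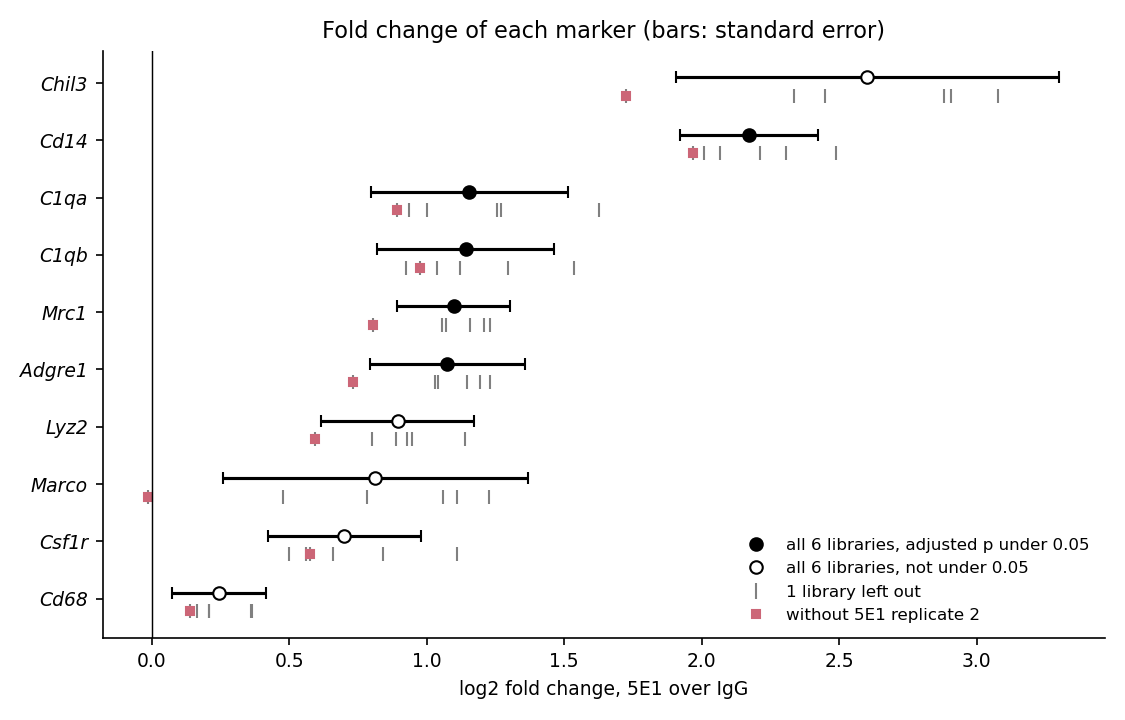
Log2 fold change of each marker, 5E1 over IgG, in the fit of all 6 libraries (circles with SE bars, filled where the adjusted p is under 0.05) and with 1 library left out (ticks, with red squares for the fit without 5E1 replicate 2). Cd14 stays between 1.97 and 2.49, and Marco drops to -0.01 without 5E1 replicate 2.

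The order of the members' levels, compared per kilobase of exon, changed between groups. In IgG, Lyz2 led with 48.9 ± 5.47 CPM per kilobase (mean ± SD, n = 3), close to Pdgfra itself at 50.1 ± 7.73, and Cd68 followed with 7.88 ± 1.11. Chil3 (2.22 ± 1.18), Cd14 (2.22 ± 0.752), C1qb (1.98 ± 0.855), C1qa (1.68 ± 0.824), Csf1r (1.47 ± 0.628) and Mrc1 (1.23 ± 0.0921) came next, and each overlapped its neighbour in the order. Marco (0.757 ± 0.389) and Adgre1 (0.724 ± 0.0626) were lowest and overlapped each other. In 5E1 Lyz2 stood at 90.7 ± 33.8, and Chil3 (13 ± 10.2) and Cd14 (10.1 ± 2.37) stood level with Cd68 (9.36 ± 1.48), with overlapping libraries. Without 5E1 replicate 2 the mean was 7.12 for Chil3, 8.79 for Cd14, 8.76 for Cd68 and 0.726 for Marco. C1qb (4.41 ± 1.0), C1qa (3.77 ± 1.05), Mrc1 (2.63 ± 0.825), Csf1r (2.40 ± 0.443), Adgre1 (1.52 ± 0.541) and Marco (1.27 ± 0.950) followed, each overlapping the next.

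The wider lists place the members among leukocyte genes. Of 19 genes of leukocytes in general 16 rose and none fell (median log2 fold change 1.11), against 12.1% and 11.1% of all genes tested. Tyrobp, an adaptor of myeloid receptors, rose by 1.23, Laptm5, a lysosomal protein gene of blood cells, by 1.11, Coro1a, a leukocyte actin regulator, by 1.30, and Cd52 by 2.04, with adjusted p of at most 0.000947. Ptprc rose 1.05 on the log2 scale (adjusted p 0.00442). All of these calls held in all alternatives that tested the gene.

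Of 16 tested alveolar macrophage genes 6 rose and none fell (median 1.18), against 12.1% and 11.1% of all genes tested. Ear1, a ribonuclease gene, rose from 0.988, 0.952 and 0.835 CPM in IgG to 2.34, 4.5 and 2.32 CPM in 5E1 (log2 fold change 1.73, adjusted p 0.00624), and Plet1, an epithelial and alveolar macrophage surface gene, by 1.36 (0.0133, and 0.0551 without IgG replicate 1). Cd9, a tetraspanin gene, and Lpl, the lipoprotein lipase gene, rose by 1.26 and 1.1, at 20.1 CPM and 88.9 CPM or more in every library, and both are also expressed outside macrophages. The call of Lpl missed the threshold without 5E1 replicate 3 (adjusted p 0.0502). Of 13 tested interstitial macrophage genes 8 rose and none fell (median 0.71). F13a1, a transglutaminase gene, rose from 2.45, 1.29 and 2.80 CPM to 7.01, 11.9 and 5.30 CPM (log2 fold change 1.87, adjusted p 0.00507). Apoe rose by 1.86, from 162 to 245 CPM in IgG to 625 to 859 CPM in 5E1, and fibroblasts express it too.

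Of 14 tested monocyte genes 6 rose and 1 fell (median 1.55), against 12.1% and 11.1% of all genes tested. Itgam, an integrin chain of monocytes and neutrophils, rose from 3.30, 3.14 and 3.59 CPM to 11.4, 12 and 7.73 CPM (log2 fold change 1.63, adjusted p 0.000509). Ccr2, the chemokine receptor of classical monocytes, rose from 1.46, 1.18 and 1.6 CPM to 5.43, 5.03 and 3.06 CPM (1.65, adjusted p 0.00311). The gene that fell was Vcan, from 644, 658 and 609 CPM to 355, 293 and 431 CPM (log2 fold change -0.82, adjusted p 0.00176). It encodes versican, a matrix proteoglycan that fibroblasts also make.

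Marker lists of other cells differed in how many genes rose, against 12.1% called higher among all genes tested. The low-count filter can keep a gene that is over its minimum in the 5E1 libraries alone, and this was checked for the members only. Counts out of the genes tested may therefore hold markers tested because they were high in 5E1. The same limit holds for the lists above. Neutrophil markers rose in 16 of 16 tested (20 listed), and their summed level was 19.7 to 27.5 CPM in IgG and 189 to 305 CPM in 5E1. S100a8 and S100a9, the most abundant of that list, rose by log2 fold changes of 4.03 and 3.57 (adjusted p 1.38e-05 and 9.41e-06), whereas the neutrophil surface gene Ly6g had 1, 0 and 0 reads in IgG and 8, 8 and 6 in 5E1. The highest library for neutrophil markers was 5E1 replicate 1, not 5E1 replicate 2. Mast cell and basophil markers rose in 6 of 6 tested (10 listed; summed 14.8 to 16.4 CPM and 39.2 to 65.2 CPM), median log2 fold change 1.66, with the most abundant of them Kit, which endothelial cells share (2.10), and Gata2 (1.23), whose call was lost on dropping any library but 5E1 replicate 3 (adjusted p 0.0559 to 0.135). Of the 6, 2 passed when IgG replicate 1, IgG replicate 2 or 5E1 replicate 2 was dropped. The call of Gata2 was also lost with library size alone (0.0663), limma-voom (0.0725) and the replicate number as a block (0.0580). It was lost as well with a term for libraries lacking Y-linked reads (0.0753). Dendritic cell markers rose in 2 of 5 tested, among them Ccr7 (log2 fold change 1.95) but not Zbtb46 (0.01, adjusted p 0.961). Lymphocyte markers rose in 2 of 9, Ighm (0.86, adjusted p 0.0803) and Cd79a (0.55, adjusted p 0.293) not among them.

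Epithelial markers rose in 4 of 16 (summed 496 to 739 CPM in IgG, 543 to 1617 CPM in 5E1), with Sftpc at 114, 124 and 120 CPM in IgG and 156, 282 and 111 CPM in 5E1 and Scgb1a1 at 239 to 489 and 256 to 999 CPM, neither of which passed (adjusted p 0.246 and 0.659). Endothelial markers rose in 2 of 12 (summed 179 to 209 CPM and 203 to 397 CPM), Tek (0.87) but not Ramp2 (0.07, adjusted p 0.654) among them. Of all genes tested 12.1% were called higher and 11.1% lower, so the endothelial count was near the share of all genes. Erythroid markers, of which Hbb-bs and Hbb-bt were the most abundant (adjusted p 0.146 and 0.102, and 0.0183 and 0.00581 without 5E1 replicate 3), summed to 162 to 201 CPM in IgG and to 350, 257 and 1106 CPM in 5E1, and of 8 tested none rose and 1 fell (Epor, log2 fold change -1.20). No listed marker of another cell type that is in the files was at 0 in every library. The part of neutrophils, epithelium, endothelium or blood in the members' readings was not tested. Mesenchymal genes stood at far higher levels, and of 12 tested 4 rose and 1 fell (Acta2, log2 fold change -0.86). Eln rose from 23324 to 32329 CPM in IgG to 44463 to 55475 CPM in 5E1 (log2 fold change 0.85, adjusted p 0.00847, and 0.0506 without IgG replicate 3). Col3a1 rose from 17808 to 25345 CPM to 25521 to 39493 CPM (0.64, adjusted p 0.0484), a call lost without IgG replicate 2 (0.164) or 3 (0.166) or 5E1 replicate 1 (0.0778) or 3 (0.148). The call of Col3a1 was also lost with library size alone (0.0536), no robust estimation (0.0743) and the replicate number as a block (0.0733). A term for libraries lacking Y-linked reads ended it too (0.0772).

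**Figure D4:**
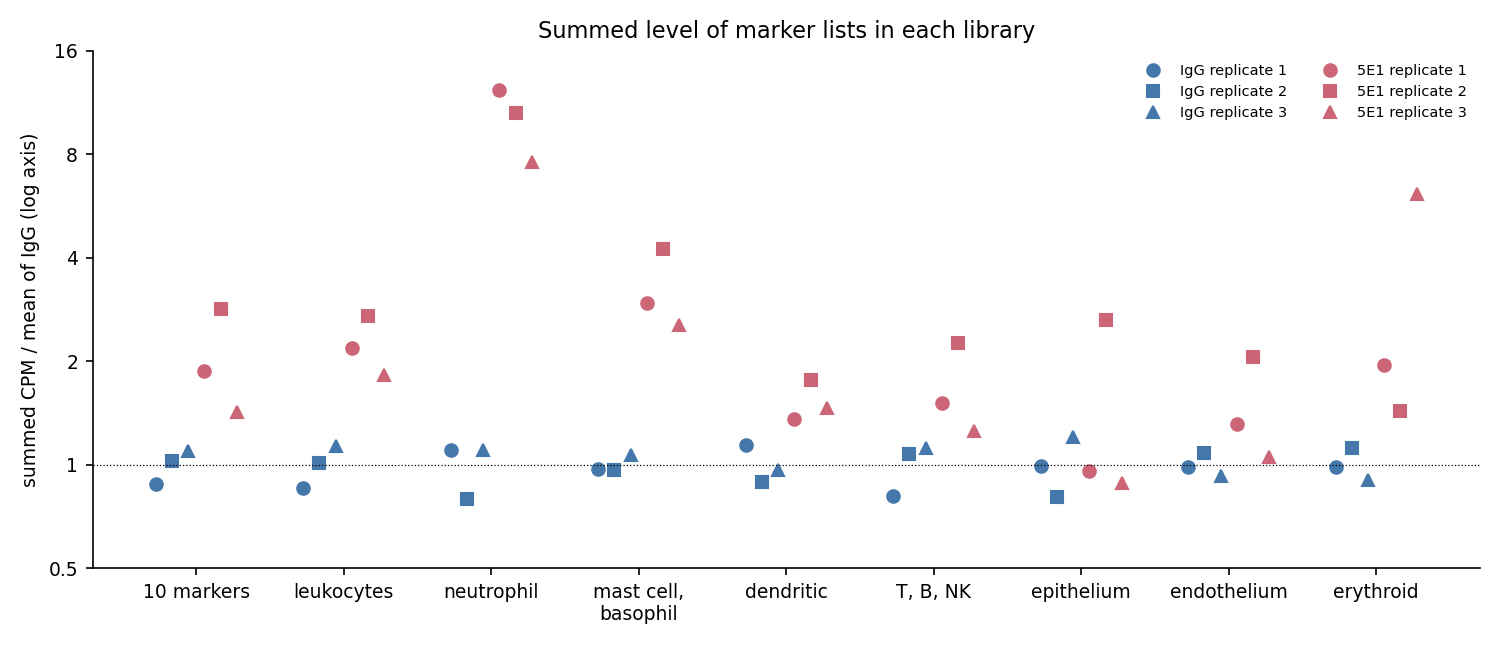
Summed CPM of the 10 markers and of marker lists of leukocytes and other cells, divided by the mean of the 3 IgG libraries (log axis, dotted line at 1), for IgG (blue) and 5E1 (red) libraries. The 10 markers and the leukocyte list show the same order of 5E1 libraries (replicate 2, then 1, then 3). The mast cell and basophil, lymphocyte (T, B, NK), epithelial and endothelial lists share that order. The neutrophil list is highest in replicate 1, the epithelial list stands out in replicate 2 and the erythroid list in replicate 3.

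The members were also set against Ptprc, which itself rose. The summed CPM of the members per CPM of Ptprc was 11.8, 11 and 10.9 in IgG and 9.83, 12.4 and 10.6 in 5E1. Lyz2 alone made up 49.5% (5E1 replicate 3) to 64.2% (IgG replicate 2) of the members' reads, so the summed ratio largely reads Lyz2. Taken singly, reads per read of Ptprc overlapped between groups for 7 of 10 members, of which 5 had not overlapped in CPM and 2 (Csf1r and Marco) had. On this scale all 5E1 libraries lay above all IgG libraries for 1.26% of 16197 genes tested and below them for 68.6%. Adgre1 gave 0.250 ± 0.0279 in IgG and 0.251 ± 0.0461 in 5E1 (SD, n = 3 each), Mrc1 0.841 ± 0.110 and 0.866 ± 0.176, and C1qa 0.182 ± 0.0713 and 0.203 ± 0.0345. The exceptions were Cd14 and Chil3, higher in all 5E1 libraries, and Cd68, lower in all. Cd14 gave 0.675, 0.290 and 0.314 in IgG and 0.688, 0.910 and 1.16 in 5E1, a narrow gap set by IgG replicate 1. Chil3 gave 0.286, 0.591 and 0.263 in IgG and 0.599, 1.67 and 0.780 in 5E1, and Cd68 1.20, 0.892 and 1.08 in IgG and 0.610, 0.550 and 0.680 in 5E1. For comparison, S100a8 gave 0.385, 0.29 and 0.3 in IgG and 2.96, 2.29 and 2.40 in 5E1. These ratios were not tested, and Ptprc is shared by all leukocytes.

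**Figure D5:**
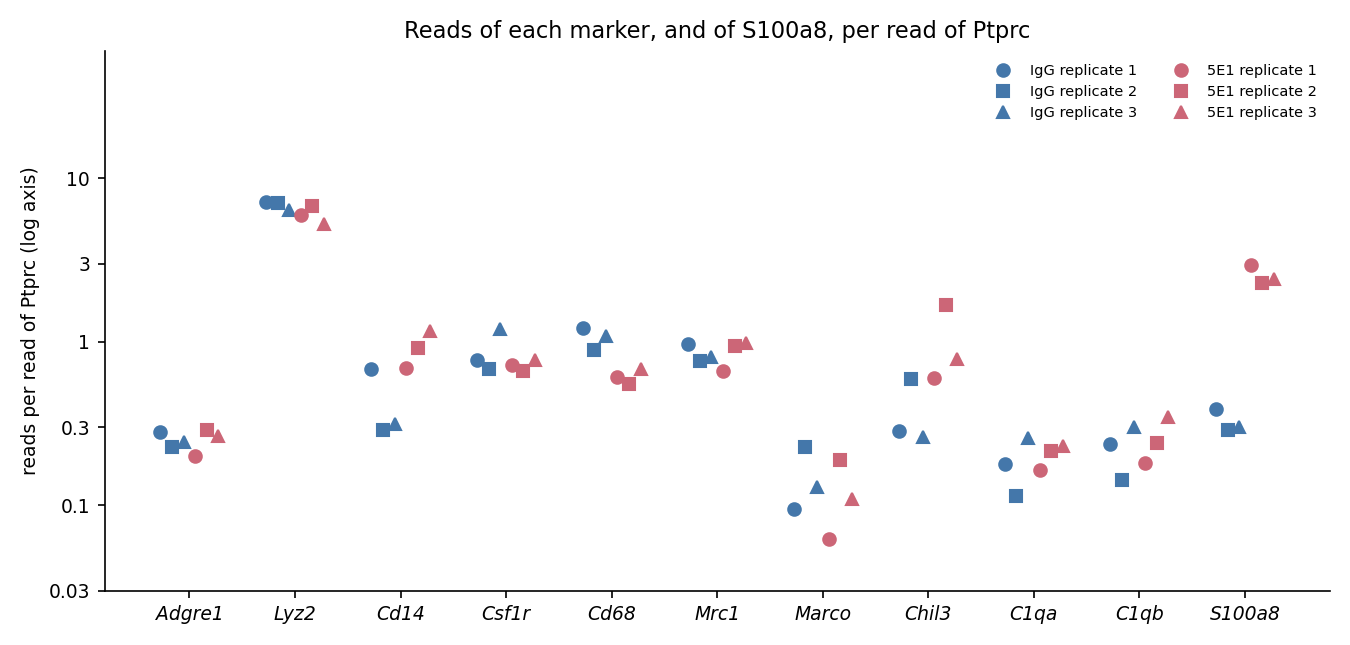
Reads of each marker, and of the neutrophil gene S100a8, per read of the leukocyte gene Ptprc (log axis) in the 3 IgG (blue) and 3 5E1 (red) libraries. The groups overlap for 7 markers, Cd14 and Chil3 are higher and Cd68 lower in all 5E1 libraries, and S100a8 lies between 2.29 and 2.96 in 5E1.

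The genes whose profile over the 6 libraries was most like that of the summed members were Tinagl1, Emb, Slc15a3, Nckap1l and Itga3. Likeness was the root mean square distance between log2 CPM profiles, each centred on its mean, over 10739 genes outside the lists with at least 5 CPM on average, and these 5 had distances of 0.08 to 0.17. Each of the 5 had its highest level in 5E1 replicate 2. This follows from the choice, because the summed members were highest there, and it is no separate result. That library was also highest for the epithelial markers. Which cells the reads of these 5 genes come from was not tested. Nckap1l measured 2.59, 3.19 and 3.23 CPM in IgG and 7.12, 10.4 and 6.11 CPM in 5E1. Tinagl1 measured 3.13, 3.25 and 4.14 CPM in IgG and 7.44, 11.9 and 4.82 CPM in 5E1. The members themselves lay between 0.12 (Lyz2, which makes up much of the sum) and 0.71 (Chil3) from the summed profile.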

How the data were processed

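Bulk RNA sequencing of sorted EGFP+ lung cells was taken as deposited: whole-number counts of reads for each gene symbol, which the authors deposited without normalization in a file for each library. The submitters' processing notes name build mm10 and, without roles, HTSeq 0.6.0, STAR 2.5.0c, R 3.5.1, Picard 1.126, DESeq2 1.10.0 and bedtools 2.17.0. Libraries came from a stranded mRNA kit per the labels' protocols. For annotation, strand setting and duplicate handling the entry is "not given in the sources used here". Summary lines that name no gene (36.4% to 54.7% of a library's reads, mostly unaligned) were left out.

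Depth was 16958433 to 34318583 gene reads per library, and a member had 20 to 5494 reads in a library. No pair of libraries within a group matched within sampling noise (chi-square over degrees of freedom 16.1 to 55.8). Counts were filtered with filterByExpr (minimum count 10, minimum total 15), TMM-scaled and tested across all genes in edgeR 4.0.16 (R 4.3.3) by quasi-likelihood (robust, group as the only term, two-sided). P-values were Benjamini-Hochberg adjusted over all genes tested, with calls under 0.05. CPM use TMM-scaled library sizes. Log2 fold changes are 5E1 over IgG (prior count 0.125), and the SE is the unshrunken coefficient over the root of F. The same code was tested on simulated data.

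Groups and replicate numbers come from sample titles. The labels do not say that the numbers pair libraries, so the main fit used no pairing. Same-numbered libraries did not deviate together (correlations -0.17, 0.01 and -0.07). Alternatives, 15 in all, were DESeq2 1.42.0, voom from limma 3.58.1, RLE factors, unscaled library size, other filters, no robust estimation, a replicate block, a term marking the 2 libraries that lack Y-linked reads, and each library left out. The 10 members, the lists and the naming rule were chosen with earlier results of these data known. The rule names the members, up to 4 genes with the smallest p in each related list, the 2 most abundant in each list of another cell type, Pdgfra and Ptch1, and the 5 genes most like the members. Some genes the rule names are not reported here. Ptprc, Lyz1, Chil4, Mrc2, Ly6g, Csf1 and Il34 were added later as comparators, and Epor and Acta2, which fell in their lists, were named after their values were seen. Coordinates, exon lengths and shared 50-base words come from GENCODE M21 (GRCm38, mm10), and promoter sequences from RefSeq (GRCm38.p6).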

Additional observations from a re-analysis of the deposited data

How the results depend on the processing

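The number of members called was 5 with all 6 libraries and 8 with DESeq2. It was 7 with limma-voom, without robust estimation and with the term for libraries lacking Y-linked reads, and 6 with low counts kept. It ran from 2 to 5 with 1 library left out, being 2 without IgG replicate 1 or 2, 3 without 5E1 replicate 2 and 4 without 5E1 replicate 3. Over all genes, 3757 were called, and 2305 to 3704 with 1 library left out. With library size alone 1312 genes were higher and 3274 lower, against 1966 and 1791, the median of all genes moved to -0.14, and 4 members were called. With the replicate number as a block, 5 members and 3220 genes were called, C1qa was lost and Chil3 passed. At least 5 CPM in 3 libraries left 6 members to test. No member was called lower in any alternative.

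Over 146 combinations of member and alternative, 115 kept direction and side of the threshold, 14 lost the call, 16 gained it and 1 reversed, that of Marco, whose log2 fold change ran from -0.013 to 1.23 with 1 library left out. Zbtb46 reversed with library size alone (-0.13), with low counts kept (-0.0025) and with 1 library left out (-0.043 to 0.065), and Ramp2 with library size alone (-0.070). With 1 library left out, Scgb1a1 ran from -0.44 to 0.80 and Lyz1 from -0.046 to 0.87, both negative without 5E1 replicate 2. Genes called higher in the lists ranged over the alternatives from 3 to 11 (alveolar macrophage), 4 to 9 (interstitial), 2 to 8 (monocyte), 12 to 16 (leukocyte), 6 to 11 (growth factor), 3 to 4 (Cd14 partners), 6 to 12 (scavenger), 3 to 8 (relatives), 12 to 17 (neutrophil), 2 to 6 (mast cell), 1 to 3 (dendritic), 0 to 4 (lymphocyte), 2 to 8 (epithelial), 2 to 5 (endothelial), 0 to 5 (erythroid) and 0 to 8 (mesenchymal). Over the same alternatives the share of all genes called higher ran from 7.26% to 16.5%. Of 46 other named genes that were called, 37 were called in every alternative that tested them. Many of the 46 were named for a small p in these same data, so that count is no independent measure of how firm the calls are. C1qa had 20 to 174 reads per library, and the part of counting error in its spread was not tested.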
